A study of Mus musculus with 18 samples.

Results

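Insulin and insulin-like growth factor (IGF) signalling was represented by 10 genes, chosen with earlier results of these data known: Insr, Irs1, Irs2, Igf1, Igf1r, Igfbp1, Foxo1, Foxo3, Akt2 and Pik3r1. Binding of BMAL1, a transcription factor of the circadian clock, was measured in the liver, the kidney and the heart by ChIP-seq, in which DNA bound to a protein is pulled down with an antibody and sequenced. All groups were wild-type C57BL/6 mice aged 3 to 6 months, fed freely in a cycle of 12 h light and 12 h darkness, and taken at ZT 6, which is 6 h after lights on. Each of the 3 tissues had 3 ChIP and 3 input libraries, 18 in all, from whole organs of the same 3 mice, so each list mixes the cell types of an organ. For every tissue the libraries were pooled by the authors into 1 list of peaks. A peak belonged to a gene when its centre lay inside the gene or within 10 kb of either end. By this rule 29 of the 11366 peaks belonged to 7 of the 10 genes. They were 13 of 4813 liver peaks, 12 of 4034 kidney peaks and 4 of 2519 heart peaks. The values therefore carry no error between animals, and the depth of sequencing is unknown. Peaks from 2 or 3 lists made up 1 site where they had 1 bp or more in common, which gave 20 sites.

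Insulin and IGF-1 bind receptor tyrosine kinases, which phosphorylate the docking proteins IRS1 and IRS2. These recruit phosphoinositide 3-kinase (PI3K), its lipid product brings AKT kinases to the membrane, and AKT phosphorylates FOXO transcription factors, which then leave the nucleus. In liver the pathway restrains glucose output, in heart it acts on glucose uptake and growth, and in kidney on tubular transport and glucose output. BMAL1 pairs with CLOCK and binds E-boxes, whose standard form is CACGTG.

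The promoters of Irs1, Irs2 and Foxo3 are printed because a peak overlapped the promoter of each of these genes. Among the 10 genes, 9 had start sites in the RefSeq promoter table (GRCm38.p6), with 13 promoter windows of 300 bp between them, from 250 bp before a start to 50 bp after it. Insr had none there. Peaks overlapped the promoter windows of these 3 genes and of no other member among the 9. Insr could not be assessed, since its start and strand were not in that table. It had a liver and a heart peak centred 15.5 and 130.5 bp from its upper end. Each sequence gives the 250 bases before the start, 5′ to 3′ on the gene's strand, which is the minus strand in each case. Capitals mark the E-box. The stretches are chr1:82291440-82291689 for Irs1, chr8:11008930-11009179 for Irs2 and chr10:42276696-42276945 for Foxo3.
Irs1: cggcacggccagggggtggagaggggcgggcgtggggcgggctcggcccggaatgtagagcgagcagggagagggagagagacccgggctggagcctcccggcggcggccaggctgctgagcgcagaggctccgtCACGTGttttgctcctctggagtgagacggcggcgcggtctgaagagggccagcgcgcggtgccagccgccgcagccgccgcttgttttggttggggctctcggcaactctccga
Irs2: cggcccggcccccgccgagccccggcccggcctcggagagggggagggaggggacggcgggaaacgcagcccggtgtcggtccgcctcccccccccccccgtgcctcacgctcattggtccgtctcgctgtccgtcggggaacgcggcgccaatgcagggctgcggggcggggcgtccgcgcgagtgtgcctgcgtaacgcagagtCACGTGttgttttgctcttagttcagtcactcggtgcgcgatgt
Foxo3: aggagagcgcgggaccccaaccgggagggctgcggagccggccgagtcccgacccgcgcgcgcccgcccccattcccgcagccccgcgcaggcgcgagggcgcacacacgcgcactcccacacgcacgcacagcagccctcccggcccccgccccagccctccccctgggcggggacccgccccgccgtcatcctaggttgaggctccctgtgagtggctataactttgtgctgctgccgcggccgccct

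The Irs1 E-box begins 115 bp before the start (chr1:82291549-82291554) and the Irs2 E-box 44 bp before it (chr8:11008968-11008973). At Irs1 the middle of the E-box lay 1 bp from the centre of the liver peak and 19 bp from that of the kidney peak. At Irs2 the distances were 4 bp in liver and 8 bp in kidney. Both E-boxes thus sat near the middle of the peaks called over them in each list. The 2 stretches shared gtCACGTGtt, 10 bases through the E-box, and no shared run was longer. Another run of that length, tgttttgctc, was also in both. Of the 32851 promoter windows of the table, 25 (0.0761%) held gtCACGTGtt on either strand, and 2349 held CACGTG. The run was picked from these same 2 promoters, so its low share is a description only. Neither CACGTG nor the related CACGTT occurred on either strand of the Foxo3 promoter window, over which all 3 lists had a peak. Of the 272 windows under a peak of every list, 58.5% held at least 1 of these motifs. CACGTT was found, on the reverse strand, in 1 of the 4 Akt2 windows, 43 to 48 bp before the start (aaataaaaagttAACGTGacgggtgcctaa, with the match in capitals, chr7:27591504-27591509 for the match), where no peak overlapped. CACGTT was thus in 1 of the 13 member windows, beside 4.68% of all windows. The forkhead motif TGTTTAC, searched on both strands, occurred in none of the 13 windows and in 3.65% of all windows.

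Over all 32851 windows, 7.15% held CACGTG on either strand. The share was 38.5% of the 1048 windows under a liver peak, 35.8% of the 1360 under a kidney peak and 34.4% of the 695 under a heart peak. It was 52.6% of the 272 windows under a peak of every list and 5.52% of the 30769 windows under none. Among the members, 2 of 13 windows held it, and these were the Irs1 and Irs2 windows with liver and kidney peaks. A match of letters describes the sequence and was not tested as a binding site.

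**Figure D1:**
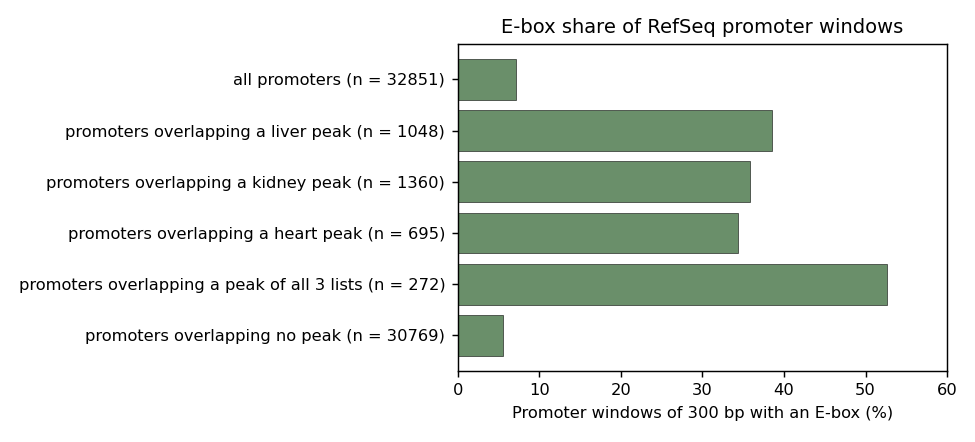
Share of RefSeq promoter windows of 300 bp that held CACGTG on either strand (horizontal axis, percent), for all windows and for windows overlapped by a peak of each list, of all 3 lists or of none, with n windows in each row. The share was 7.15% of all windows and between 34.4 and 38.5% of windows under a peak of 1 named tissue.

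The members were first set against all genes. The liver list had a peak at 5 of the 10 members, against 18.1% of 21887 protein-coding genes. The kidney list had one at 6 of 10, against 18.0%, and the heart list at 2 of 10, against 11.5%. At least 1 list had a peak at 7 members, where 30.7% of all protein-coding genes had one. Insr and Foxo3 had peaks in all 3 lists, as had 4.35% of genes. Irs1 and Irs2 had peaks in liver and kidney and none in heart, the pattern of 5.42% of genes. Igf1r, Akt2 and Pik3r1 had peaks in 1 list each (18.0% of genes), the first pair in kidney and the last in liver. No list had a peak at Igf1, Igfbp1 or Foxo1, as at 69.3% of genes.

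The window changed the counts of both members and background. With peak centres inside the gene only, 3 members had a liver peak, 4 a kidney peak and 1 a heart peak, against 10.2, 9.65 and 6.83% of genes. Within 5 kb the members with peaks numbered as within 10 kb, against 15.5% of genes for liver, 15.5% for kidney and 9.99% for heart. Within 50 kb they were 7, 7 and 4 of 10, against 34.0, 33.1 and 22.7%. At each window the heart share of the members lay closest to its background.

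Gene length bears on these counts, since a longer gene offers a wider window. The median length was 80.3 kb for the members and 17.2 kb for all protein-coding genes. Members with peaks are therefore also given within classes of gene length. The largest number of members fell among the 2516 genes of 50 to 100 kb, where 24.3% had a liver peak, 23.6% a kidney peak and 18.0% a heart peak. Of the 5 members in that class (Irs1, Foxo1, Foxo3, Igf1 and Pik3r1), 3 had a liver peak, 2 a kidney peak and 1 a heart peak. Above 100 kb, 1 of 2 members (Igf1r and Insr) had a liver peak, 2 a kidney peak and 1 a heart peak, against 27.7, 26.8 and 23.7% of genes. Between 10 and 50 kb, 1 of 2 (Akt2 and Irs2) had a liver peak, 2 a kidney peak and 0 a heart peak, against 20.1, 19.4 and 11.3%. Igfbp1, below 10 kb, had none, as most genes of that class, where 10.9, 12.0 and 5.99% had one. With 1 to 5 members a class, these counts are a description only. Per Mb of gene plus window, the members had 11.9 liver peaks, 11.0 kidney peaks and 3.67 heart peaks, against 3.53, 3.33 and 1.91 for all protein-coding genes. Without Foxo3, the kidney and heart values of the members were 8.21 and 2.05 peaks per Mb and the liver value 11.3. The difference was not tested.

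**Figure D2:**
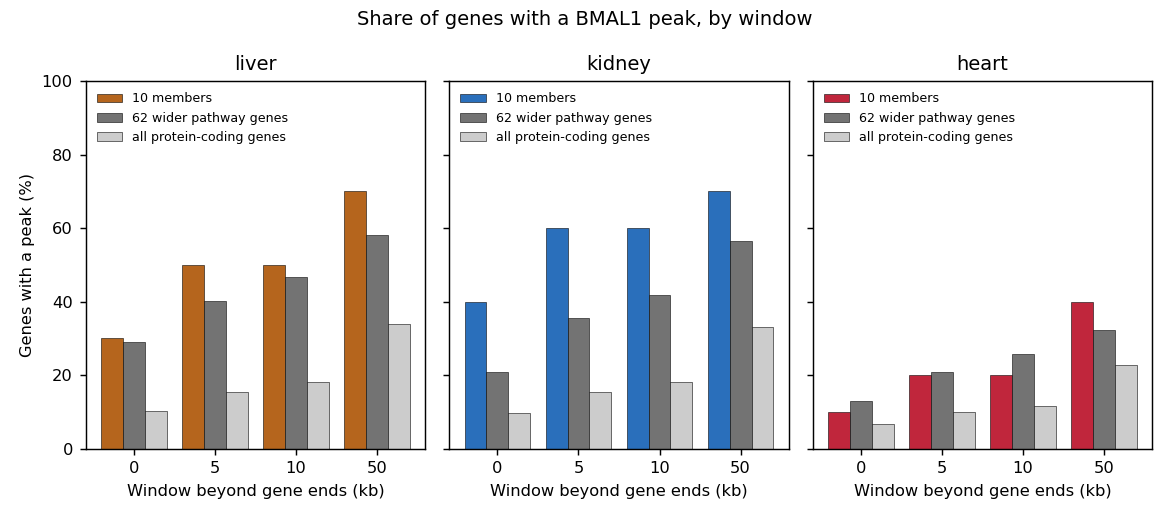
Share of genes with a peak (vertical axis, percent) in the liver, kidney and heart lists, for peak centres inside the gene (0) or within 5, 10 or 50 kb of it, for the 10 members, 62 further genes of the pathway and all protein-coding genes. At 10 kb the bars of the members stand at 50, 60 and 20% in liver, kidney and heart, and those of all genes at 18.1, 18.0 and 11.5%.

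The sites were also described by how many tissues shared them. Of the 20 sites, 13 were in 1 list (7 in kidney, 6 in liver and none in heart), 5 in 2 lists and 2 in all 3. These were 65, 25 and 10% of the sites. Of all 9005 merged regions, 79.5% were in 1 list, 14.7% in 2 and 5.76% in all 3. Each of the 4 heart peaks thus overlapped a peak of another list, whereas 65.0% of all heart peaks overlapped none. Both sites found in all tissues belonged to Foxo3. In 12 sites the peak centres lay inside the gene and in 8 outside it. The outside peak farthest from its gene was 2.44 kb away, at Irs2, so the window could have been much narrower without losing a peak. The nearest peaks beyond the 10 kb limit were a liver peak 10.4 kb below the lower end of Irs2 (score 49, rank 1804) and a kidney peak 10.9 kb above the upper end of Igfbp1 (score 14, rank 3802). For all 29 peaks the member was the nearest protein-coding gene. Only the Akt2 peak had another protein-coding gene, 2310022A10Rik, within 10 kb.

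**Figure D3:**
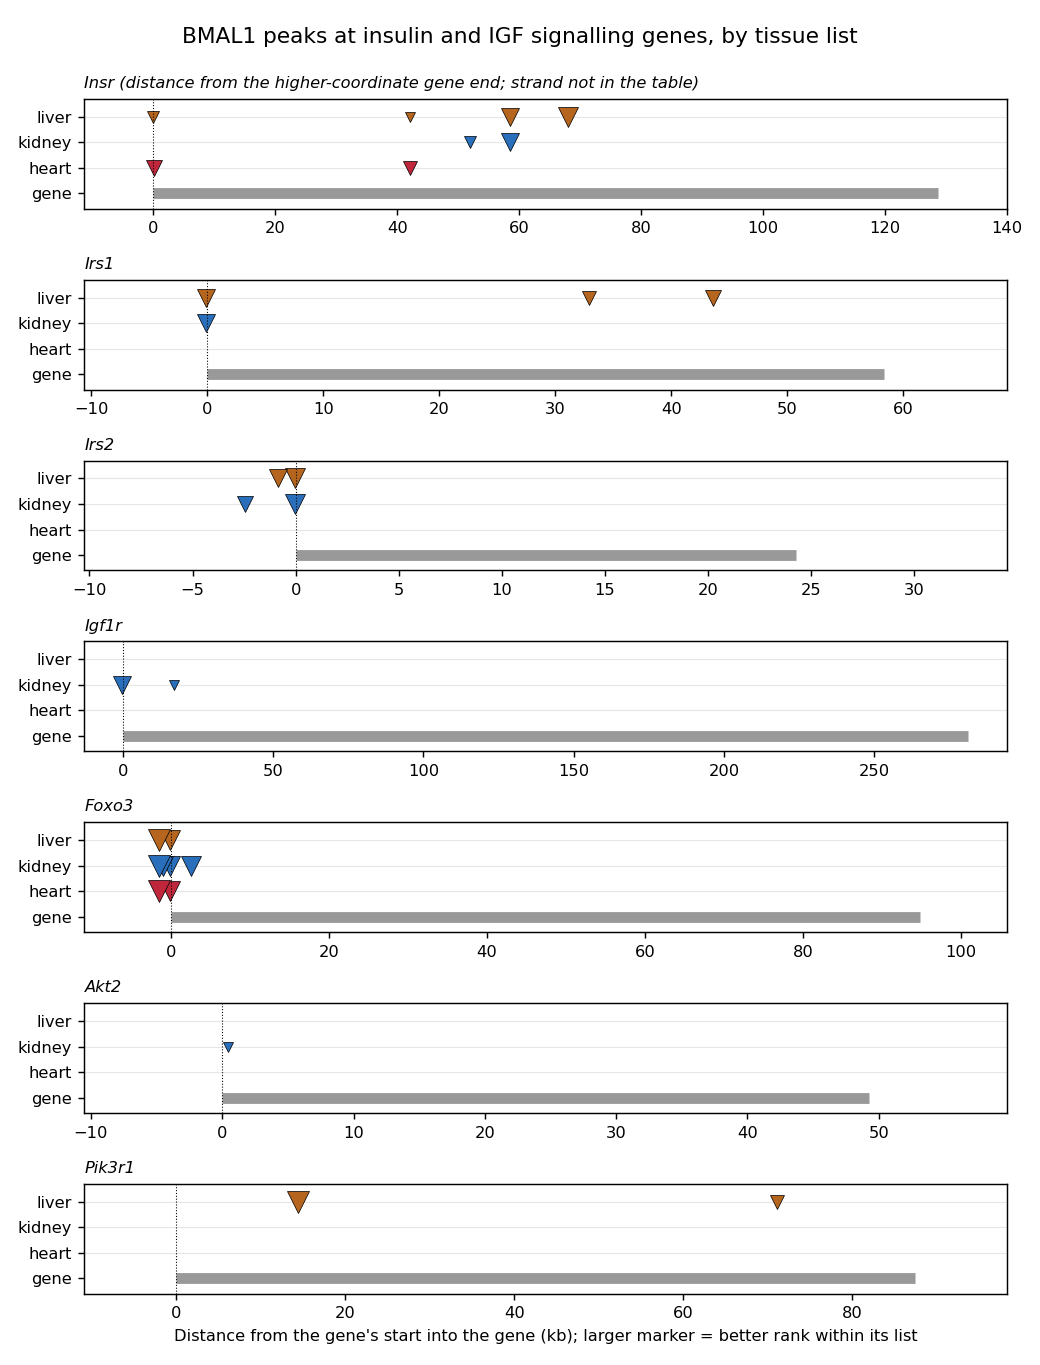
Position of each peak (triangles, larger for a better rank within its list) in the liver, kidney and heart lists along the 7 genes with peaks, in kb from the start into the gene (for Insr from the end with the higher coordinate); the grey bar is the gene. Foxo3 and Irs2 have their peaks within 2.58 kb of the start, whereas the Insr peaks are spread over 67.9 kb.

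Ranks are counted from the highest score in a list, with tied peaks given the best rank of the tie. The score is the authors' whole-number value. With its scale unknown, it serves only to order peaks within a list. The median score of a list was 40 for liver, 28 for kidney and 25 for heart. Member peaks scored above their list's median in 9 of 13 cases in liver, 8 of 12 in kidney and 3 of 4 in heart. Their median scores were 64, 41.5 and 49.

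The ligand and its carrier came first in the order of signalling. Igf1 encodes IGF-1, the growth factor that liver releases under growth hormone, and Igfbp1 encodes a secreted protein that binds IGFs and falls when insulin rises. Neither had a peak in any list. The nearest peak to Igf1 (chromosome 10, 87858265 to 87937047) was 120.1 kb away in liver, 286 kb in kidney and 883 kb in heart. To Igfbp1 (chromosome 11, 7197787 to 7202546) the distances were 44.5 kb in liver, 10.9 kb in kidney and 669 kb in heart. The kidney peak just beyond the limit lay inside the neighbouring gene Igfbp3, which encodes the main IGF carrier of blood plasma.

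The receptors differed in the number and tissues of their sites. Insr encodes the insulin receptor and lies on chromosome 8, 3150922 to 3279649. It had 5 sites, a number reached by 0.461% of protein-coding genes, and none was common to the 3 lists. Peaks in every list without a common region were found at 1.27% of genes. Peaks of the liver list lay at 4 of the sites, and 0.402% of genes had so many liver peaks. The heart list had 2 peaks at Insr and 2 at Foxo3, and 1.24% of genes had at least 2. Shares of genes with several peaks or sites, here and below, are over genes of all lengths. Insr is 129 kb long, and these shares were not computed by class of length.

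The best ranked Insr site was in liver only (3211564 to 3211805, score 74, rank 888). The next was shared by liver (3221021 to 3221262, score 62, rank 1251) and kidney (3220988 to 3221175, score 35, rank 1473), and the peaks overlapped by 155 bp. A kidney-only site followed 6.53 kb further along (3227547 to 3227734, score 20, rank 2878). These 3 sites lay in the middle of the gene, 52.0 to 68.0 kb from its upper end. Liver and heart shared the remaining pair. The first of that pair scored 19 in liver (3237433 to 3237674, rank 4450) and 20 in heart (3237415 to 3237612, rank 1624). The second lay at the upper end of the gene, with scores of 25 in liver (3279513 to 3279754, rank 3702) and 26 in heart (3279420 to 3279617, rank 1184). Both were in the lower part of the liver list, at 92.5 and 76.9% of its length, and in the middle of the heart list, at 64.5 and 47.0%. The Insr sites that liver shared with kidney and those it shared with heart were thus different sites.

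Igf1r encodes the IGF-1 receptor, the longest member at 281 kb (chromosome 7, 67952257 to 68233668). It had a peak in kidney alone. That peak lay 447 bp before the start (67951717 to 67951904, score 43, rank 1083), in the upper 26.8% of the kidney list. A second kidney peak lay 17.0 kb into the gene (67969124 to 67969311, score 16, rank 3480), near the bottom of the list. The nearest liver peak was 47.1 kb and the nearest heart peak 31.2 kb from the gene.

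The docking proteins had the same tissue pattern at their starts. IRS1 and IRS2 carry the signal from both receptors, and IRS2 is a main docking protein of the liver. Irs1 (chromosome 1, 82233105 to 82291439) had the E-box site printed above in liver (82291430 to 82291671, score 64, rank 1185) and in kidney (82291439 to 82291626, score 40, rank 1198). The peak centres were 18 bp apart, 112 bp before the start in liver and 93.5 bp in kidney. The site stood at 24.6% of the liver list and 29.7% of the kidney list, so its place in the order was close in both. Irs1 had 2 further sites, in liver only, 43.6 kb into the gene (82247732 to 82247973, score 49, rank 1804) and 32.9 kb into it (82258422 to 82258663, score 36, rank 2621). Having 3 or more liver peaks, as Irs1 and Insr did, was found at 1.16% of genes.

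Irs2 is the shortest member with a peak, at 24.2 kb (chromosome 8, 10984681 to 11008929), and all 3 of its sites lay within 2.44 kb before the start. The site over the E-box was ranked higher than its Irs1 counterpart, with scores of 98 in liver (11008854 to 11009095, rank 483) and 64 in kidney (11008885 to 11009072, rank 528). The peak centres lay 4 bp apart. A liver-only site was found 842 bp before the start (11009650 to 11009891, score 68, rank 1060), and a kidney-only site 2.44 kb before it (11011279 to 11011466, score 27, rank 2045). By the 1 bp rule the tissues thus shared the Irs2 site on the start and differed at the sites further out. With centres within 1000 bp joined, the liver-only site became part of the shared one. The non-coding gene 9530052E02Rik overlaps all 4 peaks, so these cannot be given to Irs2 alone by position. The nearest heart peak lay 275 kb from Irs2 and 25.2 kb from Irs1. Overlap of a peak with a promoter window was found for 3.60% of the 27025 genes of the promoter table in liver, 4.67% in kidney and 2.43% in heart. Among the 9 members of that table, Irs1, Irs2 and Foxo3 had it in liver and kidney and Foxo3 in heart.

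Downstream of the docking proteins, Pik3r1 and Akt2 had peaks in different tissues. Pik3r1 encodes p85 alpha, the main regulatory subunit of PI3K, and shorter forms of it from a start inside the gene (chromosome 13, 101680761 to 101768217). Its liver-only peak 14.4 kb into the gene scored 138 (101753744 to 101753985) and stood at rank 200, in the upper 4.16% of the list. Among the 3962 protein-coding genes with a liver peak, 6.41% had a better ranked one. A second liver-only peak lay 71.1 kb into the gene (101696953 to 101697194, score 33, rank 2869), 4.44 kb before the inner start of the table. The nearest kidney peak was 950 kb and the nearest heart peak 1074 kb from the gene. Of the member peaks found in 1 tissue, the one 14.4 kb into Pik3r1 had the highest score in liver.

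Akt2 encodes the AKT kinase that carries most of insulin's effect on glucose (chromosome 7, 27591552 to 27640826). Its one peak was in kidney, 417 bp inside the first start (27591875 to 27592062, score 15, rank 3635). The score was held by 167 peaks. At 90.1% of the list, this was the lowest ranked member peak in kidney. The nearest liver and heart peaks were 104.6 and 100.9 kb away.

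The FOXO genes stood at opposite ends. FOXO1 and FOXO3 are the transcription factors that insulin holds out of the nucleus, and both drive genes of glucose output and stress resistance. Foxo1 (chromosome 3, 52268337 to 52350109) had no peak, the nearest being 129 kb away in liver, 166 kb in kidney and 559 kb in heart. Foxo3 (chromosome 10, 42181845 to 42276695) had 8 of the 29 member peaks, at 4 sites, and both sites found in all tissues. Genes with 4 or more sites, as Foxo3 and Insr had, were 1.17% of protein-coding genes. A gene with 2 or more regions common to the 3 lists was uncommon, at 0.174% of protein-coding genes (38 genes), and 3.09% had at least 1 common region.

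The site 1.5 kb before the Foxo3 start was the best ranked member site in every list. It scored 187 in liver (42278101 to 42278342, rank 60), 148 in kidney (42278095 to 42278282, rank 64) and 194 in heart (42278117 to 42278314, rank 26). Those ranks are the upper 1.25, 1.59 and 1.03% of the lists, and the centres lay within 33 bp of each other. Of the genes with a peak, a better ranked one was found at 1.92% for liver, 2.08% for kidney and 1.15% for heart. The site next to the Foxo3 start, in the promoter printed above, scored 112 in liver (42276695 to 42276936, rank 342). It scored 61 in kidney (42276747 to 42276934, rank 585) and 72 in heart (42276709 to 42276906, rank 268). Only the liver peak reached the start itself, and the kidney and heart peaks lay just before it. This site too was in the upper part of each list, at 7.11, 14.5 and 10.6%. A peak over a promoter window in all 3 lists was found for 0.981% of genes in the promoter table.

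Kidney added 2 Foxo3 sites that the other lists lacked. The first lay 1.05 kb before the start, between the 2 common sites (42277648 to 42277835, score 69, rank 458). The other lay 2.58 kb into the gene (42274017 to 42274204, score 56, rank 686). The 4 kidney peaks spanned 4.1 kb, and 0.228% of genes had as many peaks in that list. The kidney-only site before the start ranked above the common site next to the start within the kidney list. The non-coding gene Gm38485 lies within 10 kb of all 8 peaks, and the kidney peak 2.58 kb into Foxo3 is also inside it.

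**Figure D4:**
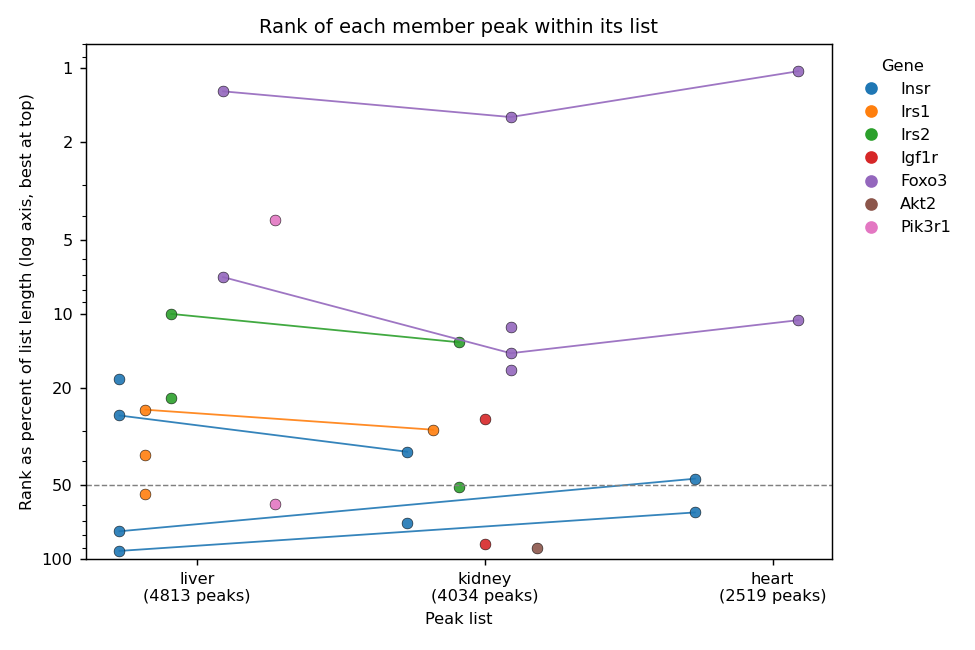
Rank of each member peak as a percentage of the length of its list (vertical log axis, best at the top) in liver, kidney and heart, coloured by gene, with lines joining overlapping peaks; the dashed line is the middle of a list. The Foxo3 site at the top stands at 1.25, 1.59 and 1.03%, and the Insr sites that liver shares with heart lie near the bottom of the liver list.

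Across the 9 members with a known start, 10 of 15 sites had a peak centre within 3 kb of one, as had 35.7% of all merged regions. By list these were 5 of 9 peaks in liver, 9 of 10 in kidney and 2 of 2 in heart. Of all peaks, 34.8% in liver, 46.1% in kidney and 41.6% in heart lay within 3 kb of a RefSeq start. The shares of all regions and peaks count them wherever they lay, whereas member peaks lay by rule within 10 kb of a gene. Member and background shares are therefore not like for like, and the 3 kb distance was chosen after values were seen. The liver peaks farther away were those inside Irs1 and Pik3r1.

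The wider pathway was described through 62 further genes. The liver list had a peak at 29 of them (46.8%), the kidney list at 26 (41.9%) and the heart list at 16 (25.8%), beside 18.1, 18.0 and 11.5% of all protein-coding genes. Their median length was 31.9 kb, and per Mb they had 8.38, 7.41 and 3.31 peaks. By role, at least 1 list had a peak at 9 of 13 ligands, binding proteins and their receptors, at 6 of 11 adaptors and brakes, at 11 of 14 genes of the PI3K and AKT arm, at 8 of 18 effectors and at 4 of 6 targets, beside 30.7% of all protein-coding genes. The targets had liver peaks at 4 of 6 genes (G6pc, Pck1, Srebf1 and Slc2a2), kidney peaks at 2 and heart peaks at none. G6pc encodes the last enzyme of glucose release, and its best liver peak ranked 483 (score 98).

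Of these 62 genes, 5 had a region common to the 3 lists, beside 3.09% of all protein-coding genes. Each of the 5 had its best ranked peak outside the gene. Tsc1, which encodes a subunit of the complex that restrains mTOR, had ranks 1127 in liver, 1003 in kidney and 654 in heart. Socs3, whose product blocks receptor and cytokine signals, had ranks 1225, 2591 and 537. The common regions at Gsk3a, a kinase that AKT inhibits (ranks 821, 329 and 308), and at Sesn1, a brake on mTOR (ranks 765, 502 and 520), lay nearer to Zfp526 and Cep57l1.

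Among the genes without a common region, the best liver ranks were those of Mtor (394), G6pc (483) and Igfbp4 (697). Mtor encodes the kinase of the growth-promoting mTOR complexes, and its best liver peak was found in liver only; a kidney peak inside Mtor ranked 2474. In kidney the best were Pik3r2 and Tbc1d1 (both 373) and Igfbp5 (548), with the Pik3r2 peak nearer to Ifi30. In heart they were Pik3cb (537), Pdpk1 (628, nearer to Amdhd2) and Akt1 (788). Pik3cb encodes a catalytic subunit of PI3K, Pdpk1 the kinase that activates AKT, and Akt1 the most widely expressed AKT.

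The lists were also set against 8 marker genes of each organ. Liver markers had a peak at 2 of 8 genes in the liver list and at none in the others. Kidney markers had peaks at 4 in kidney, 2 in liver and 1 in heart, and heart markers at 3 in heart, 3 in kidney and none in liver. Beside them stand the 18.1, 18.0 and 11.5% of all protein-coding genes with a liver, kidney or heart peak, and with 8 genes a list several of these counts are near that background. Binding is not expression, so these counts describe the lists and do not test the labels. All 3 heart input libraries carry a source label naming kidney, against their titles. Whether kidney input entered the heart list was not tested, and this bears on each statement about heart.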

How the data were processed

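Nuclei fixed with 1% formaldehyde were precipitated with a chicken antibody against BMAL1 and sequenced at 75 bp, per the labels' protocols. The score per peak was deposited by the authors in 1 list per tissue, for which ChIP and input replicates were pooled; its scale and the thresholds are unknown. The submitters' processing notes name mm10, Bowtie2, SAMtools and HOMER. Peaks were 242 bp wide for liver, 188 bp for kidney and 198 bp for heart.

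Libraries were grouped by title. Gene bounds came from RefSeq (GRCm38.p6, the build of mm10; 21887 protein-coding genes), as did promoter windows and strands. All 10 members and all 62 wider pathway genes matched a symbol. Counting was done with pandas 2.3.3 in Python 3.11.15, and counting and merging were tested on simulated data. All members are named; wider genes are named if at a region common to the 3 lists or, per list, among the next 3 by rank. One gene that this rule selects is not reported here. Members and lists were chosen with earlier results of these data known, and the 3 kb distance and length classes after values were seen. Motifs planned for peaks were searched in promoters only, since no genome sequence was used here. No test over animals was possible with pooled lists.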

Additional observations from a re-analysis of the deposited data

How the results depend on the processing

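Of 34 counts recomputed under other settings, 27 stayed within 1.5 times the reported one. With peak centres inside the gene, 3 members had a liver peak and 1 a heart peak, the sites numbered 12 and 0 of them were in all tissues. A 50 kb window gave 4 members in heart, adding Irs1 and Igf1r. The upper 50% of each list by score left 13 sites. Joining peaks with centres within 1000 bp gave 17 sites. Of these, 1 was in all tissues, since the neighbouring Foxo3 peaks became joined. The liver-only site before the Irs2 start was joined to the site on that start. Over all genes, 11.8% had a liver peak, 11.3% a kidney peak and 7.22% a heart peak. Using the same number of top peaks per list (2519), liver kept 5 members, kidney 5 (without Akt2) and heart 2. E-boxes in peaks were not run. Leaving out replicates was not run, because each list pools them. No paired analysis was possible because the lists give no value per library. Unknown depth limits what a missing peak shows: it was not called, which does not show that BMAL1 was absent.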

Other observations

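Beyond 10 kb, 9 peaks lay within 50 kb of a member, and none overlapped a peak of another list. Most peaks overlapped none, at 66.5% of all liver peaks, 57.7% of all kidney peaks and 65.0% of all heart peaks. Around Irs2 there were 3 liver peaks, all with Irs2 as the nearest protein-coding gene, with score 49 at 10.4 kb, score 55 at 12.4 kb and score 33 at 47.0 kb. Near Igfbp1 a kidney peak with score 58 (rank 644) lay 24.0 kb away and a liver peak with score 45 lay 44.5 kb away, both nearer to Adcy1, which encodes an adenylyl cyclase. The heart peaks near Irs1 and Igf1r had scores of 21 and 16 and were nearer to Rhbdd1 and Pgpep1l.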
